A study of Caenorhabditis elegans with 8 samples.

Results

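The comparison described here set the *egl-9(lf) hif-1(lf)* double mutant against the wild type, with 4 of the 8 RNA-seq libraries in the study, 2 per strain. All genes with enough counts to be tested were members, which gave 14311 of the 45461 features in the table. The first of these, CB6088, called the double mutant here, carried *egl-9(sa307)* and *hif-1(ia4)*, both on chromosome V, and the wild type was N2. The *egl-9(lf)* strain (JT307, *egl-9(sa307)*) and a strain that also lacks CYP-36A1, *cyp-36A1(lf); egl-9(lf)* (MT22836, *cyp-36A1(gk824636); egl-9(sa307)*) were measured beside them, with 2 libraries each. Each library was made from 150 very young adults, grown at 22.5°C on *E. coli* OP50 with no treatment named, and held polyadenylated RNA of whole animals. In such samples fewer cells of a type and less RNA per cell cannot be told apart. Each strain is one line, and none of the libraries came from a *hif-1(lf)* single mutant. The loss of *egl-9* without HIF-1, the loss of *hif-1* in normal oxygen and the background of the strain therefore cannot be told apart in this comparison.

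HIF-1 is the oxygen-regulated subunit of the hypoxia-inducible transcription factor. In normal oxygen EGL-9, a prolyl hydroxylase, marks HIF-1 for degradation through the VHL-1 ubiquitin ligase, so loss of *egl-9* alone leaves HIF-1 stable and its target genes high. When *hif-1* is lost as well, those targets can no longer be driven by HIF-1. Which transcripts still differed from the wild type was the question the comparison addressed.

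Few genes differed. Levels are given as CPM, the counts of a library scaled to a common total. Of the 14311 genes tested, 18 were higher and 27 were lower in *egl-9(lf) hif-1(lf)* than in the wild type at an adjusted p under 0.05 (quasi-likelihood test of edgeR, adjusted by Benjamini and Hochberg), which is 0.126% and 0.189% of the genes, or 0.314% together. At least a 2-fold difference was reached by 12 of the higher and 22 of the lower genes, 0.0839% and 0.154% of those tested. Every one of the 45 genes had both double-mutant libraries on the same side of both wild-type libraries. That alone was common, since the libraries were apart in the same way for 13.8% of all genes tested on the higher side and 14.8% on the lower side. The median log2 fold change over all genes tested was 0.01. An unadjusted p under 0.05 in edgeR's test was reached by 3.62% of the genes, 1.7% higher and 1.92% lower. These shares and the 0.314% called are the background for the counts of each gene list below. With the replicate number as a block, 84 genes passed, 35 higher and 49 lower (0.587% of the genes), and all 45 genes were among them.

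**Figure D1:**
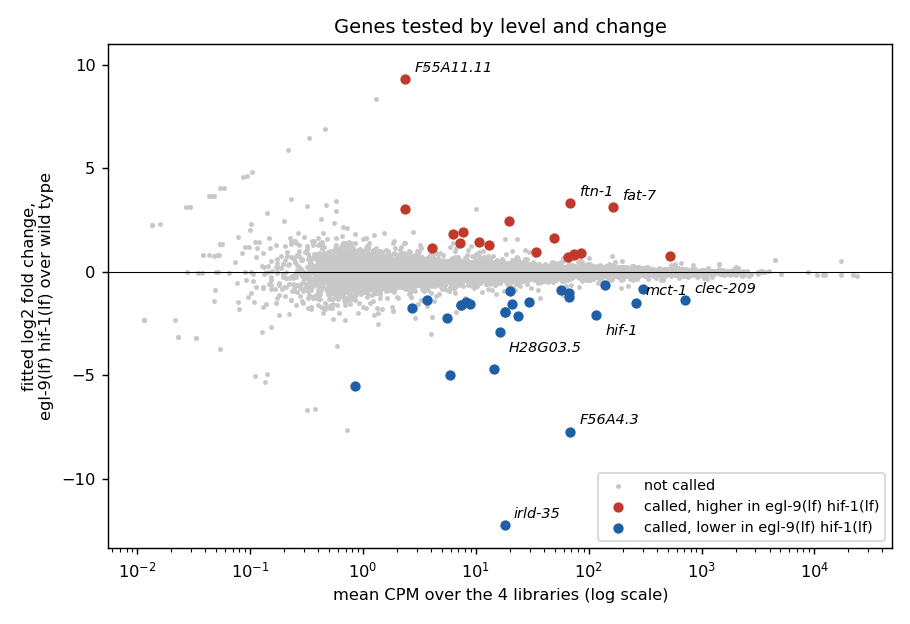
Fitted log2 fold change of *egl-9(lf) hif-1(lf)* over the wild type (y axis) against the mean CPM over the 4 libraries (x axis, log scale), one point per tested gene. Red points mark the 18 genes called higher and blue points the 27 called lower, and grey points were not called. Values for *F55A11.11* and *irld-35* rest on a strain with no counts, so their plotted size is not a measured fold.

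Library totals of the 4 compared libraries lay between 11925027 and 22269111 expected counts, both extremes in the wild type. As a root-mean-square log2 difference over the tested genes, the double-mutant libraries stood 0.435 to 0.511 from the wild-type libraries. The 2 double-mutant libraries differed by 0.521 from each other and the 2 wild-type libraries by 0.397, so the strains were no farther apart over all genes than the double-mutant replicates were. The *egl-9(lf)* libraries stood 0.912 to 0.939 from the wild type. Of 20 marker genes for intestine, muscle, epidermis, neurons, germline, sperm, oocytes, adults and moulting larvae, 19 were at 1 CPM or more in all 4 libraries and tested, and none passed edgeR's test or DESeq2's, with 1 at an unadjusted p under 0.05. Their log2 fold changes ranged from -0.34 to 0.38. The remaining marker, *dpy-7*, a cuticle collagen of larval epidermis, was under 0.43 CPM in each.

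The targeted genes were checked first. *hif-1* was at 45.8 and 43.0 CPM in *egl-9(lf) hif-1(lf)*, against 187 and 189 CPM in the wild type. It was 4.24-fold lower in the double mutant, a log2 fold change of -2.08 (SE 0.11, adjusted p = 1.14e-05), so the label of the strain and its *hif-1* transcript fit each other. The *ia4* allele is a deletion, and counts from the rest of the gene still enter this value. *egl-9* was at 22.8 and 24.3 CPM in the double mutant, against 27.4 and 26.05 CPM in the wild type, and did not pass the test (log2 fold change -0.18, SE 0.14, adjusted p = 1.00). Its transcript was at 87.3 and 100.5 CPM in *egl-9(lf)*, so the level of *egl-9* RNA does not check the *egl-9* allele.

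No call fell among the tested genes nearest to either mutated locus. By gene order among tested genes, none of the 100 nearest neighbours of *egl-9* and none of the 72 neighbours of *hif-1* passed edgeR's test, with 5 and 1 at an unadjusted p under 0.05 and none by DESeq2. Only 22 tested genes follow *hif-1* on the chromosome. The median log2 fold change was 0.04 around *egl-9* and -0.04 around *hif-1*. Over all of chromosome V, 7 of 2744 tested genes were called higher and 18 lower, 0.911% together. Among the lower ones are *hif-1* and 12 genes of a run described below. On the other chromosomes the called share lay between 0.0826% (II) and 0.341% (I). Linked background beyond the nearest genes was not tested.

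The HIF-1 response gave no call. Of 15 genes listed as responding to HIF-1, 14 were tested and none passed edgeR's test in either direction, against 0.314% of all genes. At an unadjusted p under 0.05, 1 was higher and 2 were lower, against 1.7% and 1.92% of all genes. DESeq2 called 1, *sqrd-1*, and 0.447% of all genes. The median log2 fold change of the list was -0.09, beside 0.01 for all genes.

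*cysl-2*, which encodes a cyanoalanine synthase and is among the strongest reporters of HIF-1 activity, was at 19.98 and 14.96 CPM in *egl-9(lf) hif-1(lf)*, against 16.6 and 22.6 CPM in the wild type. The groups overlapped, and the log2 fold change was -0.16 (SE 0.18, adjusted p = 1.00). In *egl-9(lf)*, where HIF-1 is intact, *cysl-2* was at 873 and 898 CPM. *nhr-57*, a nuclear hormone receptor gene, was at 2.42 and 2.51 CPM in the double mutant and at 2.69 and 4.10 CPM in the wild type, while *egl-9(lf)* had 125 and 150.1 CPM. *rhy-1*, a membrane protein gene whose product restrains HIF-1, was at 11.5 and 9.41 CPM in the double mutant and at 6.20 and 9.05 CPM in the wild type (log2 fold change 0.49, SE 0.19, adjusted p = 1.00). It was the list's highest value, and *egl-9(lf)* had 346 and 399 CPM of it.

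The lowest member was *sqrd-1*, which encodes the mitochondrial sulfide:quinone oxidoreductase of hydrogen sulfide breakdown. It was at 2.04 and 1.12 CPM in the double mutant, against 3.10 and 4.27 CPM in the wild type. Both double-mutant libraries were below both wild-type libraries, but the log2 fold change of -1.201 (SE 0.28) had an adjusted p of 0.265, or 0.0743 with the replicate block. *cysl-3*, a paralogue of *cysl-2*, was at 21.6 and 18.3 CPM in the double mutant and at 27.8 and 29.3 CPM in the wild type (log2 fold change -0.52, SE 0.13, adjusted p = 0.405). A p of this size does not show that either gene was equal in both strains.

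Other members were not called either. The collagen prolyl 4-hydroxylase gene *phy-2* had log2 fold change -0.28 (SE 0.24) and the cysteine dioxygenase gene *cdo-1* -0.03 (SE 0.18). *gcs-1*, which encodes the rate-limiting enzyme of glutathione synthesis, had -0.01 (SE 0.10), and the dye-filling gene *che-12* had 0.12 (SE 0.27). In *egl-9(lf)*, *phy-2*, *cdo-1* and *che-12* were above the wild type in both libraries, but *gcs-1* was not. It was at 89.2 and 90.2 CPM there, against 99.2 and 90.6 CPM in the wild type. The value of *gcs-1* in the double mutant therefore cannot show whether a response to HIF-1 was lost. *sysm-1* (*T24B8.5*), an intestinal stress-response reporter gene, was at 13.6 and 27.8 CPM in the double mutant, on both sides of the 20.7 and 21.6 CPM of the wild type. *fmo-2*, a flavin-containing monooxygenase gene, had 2 and 3 counts in the double mutant and 3 and 1 counts in the wild type, too few to compare. *hsp-16.1* was the member with too few counts to be tested.

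**Figure D2:**
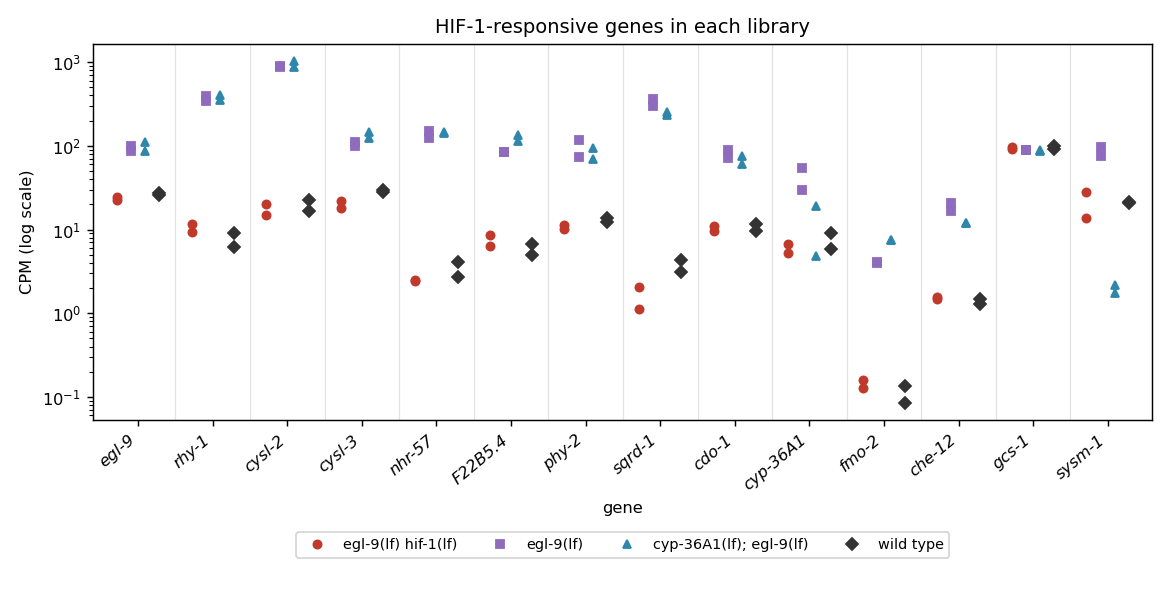
CPM (y axis, log scale) of 14 genes listed as responding to HIF-1 (x axis), one point per library, with the double mutant as red circles, *egl-9(lf)* as purple squares, *cyp-36A1(lf); egl-9(lf)* as blue triangles and the wild type as black diamonds. For *cysl-2* the double mutant had 19.98 and 14.96 CPM and the wild type 16.6 and 22.6 CPM, while *egl-9(lf)* had 873 and 898 CPM.

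Regulators of the pathway gave 1 call. Of 13 regulator genes tested, only *hif-1* was called, and the median log2 fold change was 0.00. *cyp-36A1*, a P450 gene placed downstream of HIF-1, was at 5.28 and 6.79 CPM in the double mutant and at 5.79 and 8.97 CPM in the wild type (log2 fold change -0.26, SE 0.55). *nhr-46*, a nuclear hormone receptor gene, was at 34.6 and 34.3 CPM in the double mutant and at 37.2 and 35.2 CPM in the wild type (log2 fold change -0.07, SE 0.11). None of the 27 genes of cysteine and hydrogen sulfide metabolism passed edgeR's test. At an unadjusted p under 0.05 were 3, against 3.62% of all genes, and DESeq2 called 1, *sqrd-1*, against 0.447%.

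The iron genes differed. Iron is stored inside ferritin shells and taken up through divalent metal transporters, and in *C. elegans* the intestinal ferritin gene *ftn-1* is known to be repressed and the transporter gene *smf-3* to be induced through HIF-1 when iron is low. *ftn-1* was at 147 and 102 CPM in *egl-9(lf) hif-1(lf)*, against 15.5 and 8.28 CPM in the wild type. It was 10.1-fold higher in the double mutant (log2 fold change 3.34, SE 0.34, adjusted p = 0.00111), and it also passed with any one library left out. With the robust spread estimate its adjusted p was 0.185. *ftn-2*, the second ferritin gene, was at 609 and 723 CPM in the double mutant and at 393 and 384 CPM in the wild type (log2 fold change 0.78, SE 0.13, adjusted p = 0.0318). Its adjusted p was 0.0466 without double-mutant replicate 1, 0.213 without double-mutant replicate 2, 0.375 without wild-type replicate 1 and 0.377 without wild-type replicate 2.

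*smf-3*, a DMT1-type transporter, was at 1.34 and 0.481 CPM in the double mutant, against 6.38 and 7.77 CPM in the wild type. Both double-mutant libraries were far below both wild-type libraries, on 21 and 9 counts. Its log2 fold change of -2.98 (SE 0.54) missed the threshold with an adjusted p of 0.0578, and passed with the replicate block at 0.00153 and in DESeq2 at 0.000405. *smf-1*, another transporter of that family, and *aco-1*, the cytosolic aconitase and iron regulatory protein gene, had log2 fold changes of 0.05 and -0.08 and were not called. By edgeR without a block, 2 of the 5 tested iron genes were higher and none was lower, against 0.314% of all genes called. DESeq2 called 3, against 0.447% of all genes, and the median log2 fold change of the list was 0.05. *ftn-1* was high in the other *egl-9* strains as well, at 356 and 219 CPM in *egl-9(lf)* and at 359.5 and 239 CPM in *cyp-36A1(lf); egl-9(lf)*. *smf-3* was low in them, at 0.901 and 0.150 CPM in *egl-9(lf)*. The comparisons share the wild-type libraries, so these levels are given side by side without a test. In *egl-9(lf)*, where HIF-1 is intact, both genes ran opposite to the repression of *ftn-1* and induction of *smf-3* described above for low iron. The cause was not tested.

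Among lipid genes, *fat-7* stood out. It encodes a delta-9 desaturase that makes oleic acid from stearic acid in the intestine. *fat-7* was at 247 and 345 CPM in *egl-9(lf) hif-1(lf)*, against 35.9 and 32.1 CPM in the wild type. It was 8.67-fold higher in the double mutant (log2 fold change 3.12, SE 0.19, adjusted p = 3.17e-05), and it passed in all 16 alternative settings. In *egl-9(lf)* it was at 9.56 and 9.94 CPM, below the wild type. The palmitoyl-CoA desaturase gene *fat-5* was at 8.34 and 27.4 CPM in the double mutant and at 2.46 and 1.79 CPM in the wild type. Its double-mutant libraries lay far apart, and its log2 fold change of 3.04 (SE 0.63) had an adjusted p of 0.143, or 0.00349 with the replicate block. *fat-6*, the near copy of *fat-7*, was at 212 and 451 CPM in the double mutant, around the 281 and 304 CPM of the wild type. *fat-7* was the only one called of 53 tested genes for desaturases, elongases, acyl-CoA synthases, lipases and acyl-CoA dehydrogenases, whose median log2 fold change was 0.00.

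Among transporter and detoxification genes, *pgp-5*, *ugt-31* and *cyp-14A5* were called higher by edgeR's test without a block. Transporter genes were not counted as a list. *pgp-5*, a P-glycoprotein-type transporter gene, was at 28.5 and 37.9 CPM in the double mutant, against 4.06 and 8.46 CPM in the wild type (log2 fold change 2.45, SE 0.35, adjusted p = 0.0149). Its paralogue *pgp-6* was at 14.96 and 53.8 CPM in the double mutant and at 4.19 and 19.8 CPM in the wild type, groups that overlapped, and it passed with the replicate block (adjusted p = 0.022) but not without it. *ugt-31*, a UDP-glucuronosyltransferase gene, was at 12.22 and 11.97 CPM in the double mutant, against 3.15 and 3.16 CPM in the wild type (log2 fold change 1.94, SE 0.22, adjusted p = 0.00332).

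*cyp-14A5*, a cytochrome P450 gene, was at 16.7 and 20.5 CPM in the double mutant and at 6.29 and 8.97 CPM in the wild type (log2 fold change 1.31, SE 0.22, adjusted p = 0.0453). By edgeR's test without a block, *ugt-31* was the only gene called of 59 UDP-glucuronosyltransferase genes and *cyp-14A5* the only one of 48 cytochrome P450 genes. *ugt-26* was higher as well by DESeq2 (adjusted p = 0.00414) and with the replicate block (0.00505), against 0.104 without it. *cyp-35A2* was lower with the block (0.0345), against 1.00 without it. None of 36 glutathione S-transferase genes passed edgeR's test, with 1 at an unadjusted p under 0.05, against 3.62% of all genes, and none by DESeq2. Left-out libraries mattered for *ugt-31*, whose adjusted p was 0.105 without wild-type replicate 1 and 0.0653 without wild-type replicate 2. For *pgp-5* it was 0.078, 0.208 and 0.154 without double-mutant replicate 1, double-mutant replicate 2 and wild-type replicate 1. *cyp-14A5* was lost with each library left out, at 0.0907 to 0.741.

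Genes of the immune-type secreted proteins went both ways. *lys-7*, an intestinal lysozyme gene, was at 56.9 and 92.7 CPM in the double mutant, against 22.3 and 25.4 CPM in the wild type (log2 fold change 1.66, SE 0.22, adjusted p = 0.0097). Its adjusted p was 0.154 without wild-type replicate 1 and 0.0653 without wild-type replicate 2. It was the only call among 29 tested genes for lysozymes, saposin-like proteins and related peptides. Its level in *egl-9(lf)* was 214 and 273 CPM.

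C-type lectins are a large family of secreted and membrane proteins with sugar-binding folds. By edgeR without a block, 2 of 104 tested were higher and 2 lower, 3.85% together, against 0.314% of all genes. Their median log2 fold change was 0.06. With the replicate block 2 were higher and 4 lower, *clec-218* (adjusted p = 0.0125) and *clec-223* (0.0303) being added, and DESeq2 called 5. The higher ones were *clec-7*, at 8.59 and 12.3 CPM in the double mutant and 4.38 and 3.502 CPM in the wild type, and *clec-52*, at 4.77 and 6.41 CPM in the double mutant and 2.33 and 2.73 CPM in the wild type. Both were at modest levels and close to the threshold, with adjusted p of 0.0354 and 0.0434. They were lost without double-mutant replicate 2 (0.242 and 0.248), wild-type replicate 1 (0.249 and 0.796) or wild-type replicate 2 (0.381 and 0.188). The lower ones were *clec-209*, a member of the chromosome V run described below, and *clec-222*, given with the other lower genes. None of 14 effectors of the PMK-1 immune pathway passed edgeR's test or DESeq2's. At an unadjusted p under 0.05 in edgeR's test were 3, against 3.62% of all genes.

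The other higher genes had no list in common. *F55A11.11* had 93 and 66 counts in *egl-9(lf) hif-1(lf)* (5.92 and 3.53 CPM) and 0 counts in both wild-type libraries, and 0 in the other 4 libraries. Against a limit of 3 counts over the wild-type libraries it was at least 51.8-fold higher, with an adjusted p of 0.0097 in edgeR and 1.00 in DESeq2. *parg-2*, a poly(ADP-ribose) glycohydrolase gene, was at 3.63 and 4.65 CPM in the double mutant and at 0.319 and 0.769 CPM in the wild type (log2 fold change 3.04, SE 0.49, adjusted p = 0.0318). *F14F9.4* (log2 fold change 1.81), *E03H4.8* (1.47) and *sax-2* (0.89), which encodes a Furry-type protein of neurite growth, were also higher. *parg-2*, *F14F9.4* and *E03H4.8* were lost with each of the 4 libraries left out, *sax-2* with 3 of the 4, and *F55A11.11* also with 3 (0.135, 0.0876 and 0.105 without double-mutant replicate 1, double-mutant replicate 2 and wild-type replicate 1).

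**Figure D3:**
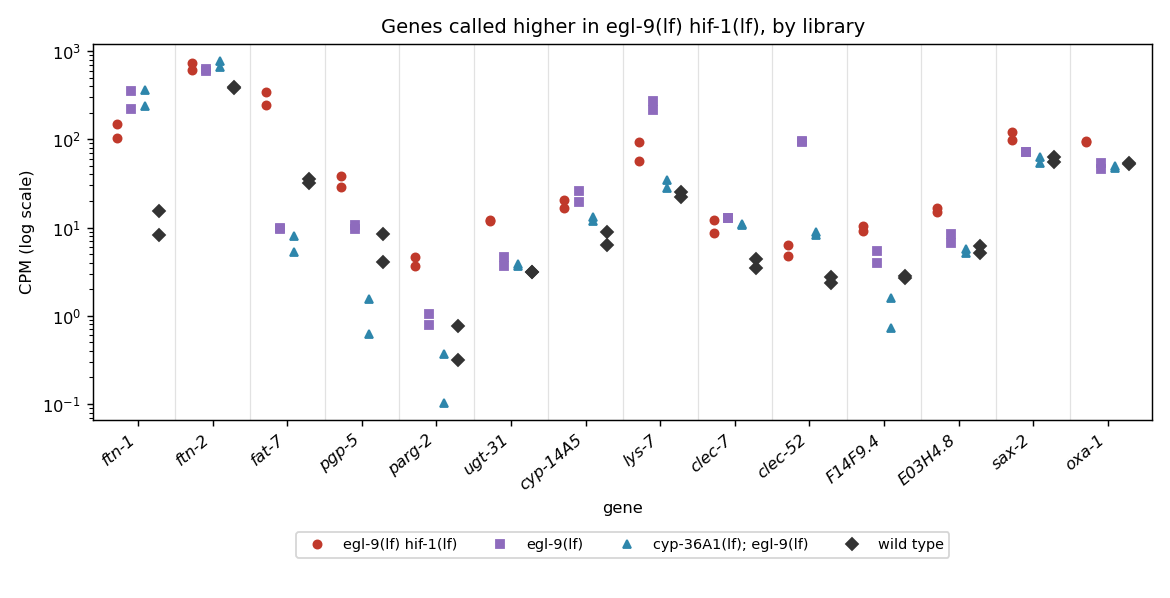
CPM (y axis, log scale) of 14 genes called higher in the double mutant than in the wild type (x axis), one point per library, with the double mutant as red circles, *egl-9(lf)* as purple squares, *cyp-36A1(lf); egl-9(lf)* as blue triangles and the wild type as black diamonds. *F55A11.11* is left out because it had 0 counts in the other strains, and 3 neighbours of *oxa-1* are left out because their log2 fold changes are close to its own. *fat-7* was at 247 and 345 CPM in the double mutant, above every other library, while *ftn-1* was high in all strains that carry *egl-9(sa307)*.

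The remaining higher genes were neighbours. *sptf-3*, *tads-1*, *oxa-1* and *C01A2.4* stand next to each other on chromosome I in the order of tested genes, and all 4 were called. Their extent was noticed in the results, so it is a description. *sptf-3* encodes an Sp-family transcription factor and *oxa-1* an insertase of the inner mitochondrial membrane. *oxa-1* was at 92.0 and 95.4 CPM in *egl-9(lf) hif-1(lf)*, against 52.5 and 53.9 CPM in the wild type (log2 fold change 0.82, SE 0.11, adjusted p = 0.0097). *tads-1* was at 102 and 89.7 CPM in the double mutant, against 52.6 and 52.6 CPM in the wild type.

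The log2 fold changes of the 4 genes were close to each other, from 0.73 for *sptf-3* to 0.96 for *C01A2.4*. Summed over them, the level was 329 and 302 CPM in the double mutant, 197 and 203 CPM in *egl-9(lf)*, 206 and 193 CPM in *cyp-36A1(lf); egl-9(lf)* and 176 and 180.0 CPM in the wild type. None of the 30 tested genes on the 2 sides of the run (15 on each) passed edgeR's test, with 2 at an unadjusted p under 0.05 and none by DESeq2, and the median log2 fold change there was 0.01. One of them, *W05H12.1*, 4 places after the run, passed with the replicate block (log2 fold change 1.01 without it, adjusted p = 0.44, and 0.0159 with the block). Directly after the run, *C01A2.2* and *mihp-1* had log2 fold changes of 0.52 (SE 0.32) and 0.80 (SE 0.26) and were not called. *mihp-1* was at 5.28 and 7.59 CPM in the double mutant and 4.01 and 3.33 CPM in the wild type. The calls therefore do not fix where the rise ends. Of the 4 genes, none was called without double-mutant replicate 1, 2 without double-mutant replicate 2, and none without either wild-type library, while the median stayed between 0.80 and 0.91.

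The lower genes were dominated by another run. Of the 27 lower genes, 18 lie on chromosome V, which holds 2744 of the tested genes, and 12 of those 18 fall within 16 consecutive tested genes that reach from *srbc-15* to *C01B4.6*. That is 44.4% of all lower calls, or 10 of 25 with copies of identical counts taken once. All 16 had a negative log2 fold change, with a median of -1.90. On the 2 sides, none of 30 genes passed edgeR's test, 3 had an unadjusted p under 0.05, DESeq2 called none, and the median was 0.05. With the replicate block 14 of the 16 passed (11 with such copies taken once), and with 1 library left out 8 or 9 passed. The 4 genes not called were *Y19D10A.8*, *Y19D10A.5*, *F56A4.10* and *C01B4.8*, which were also the lowest in the wild type. The bounds of this run, too, were drawn from the results.

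The genes of the run are of different kinds. *mct-1*, named as a monocarboxylate transporter gene, was at 138 and 139.7 CPM in *egl-9(lf) hif-1(lf)*, against 395 and 384 CPM in the wild type (log2 fold change -1.49, SE 0.10, adjusted p = 7.11e-05). *clec-209*, a C-type lectin gene and the most abundant member, was at 377 and 432 CPM in the double mutant, against 1073 and 985 CPM in the wild type (log2 fold change -1.35, SE 0.12, adjusted p = 0.000698). *C13B7.6* had the smallest called difference of the run, at 40.4 and 39.6 CPM in the double mutant and 70.8 and 77.1 CPM in the wild type (log2 fold change -0.89, SE 0.11). These 3 genes kept a clear level in the double mutant, between 35.7% and 54.03% of the wild type by group means.

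Other members of the run were almost gone. *F56A4.3* was at 0.955 and 0.374 CPM in the double mutant, against 141 and 132 CPM in the wild type, which is 0.488% of the wild-type mean (log2 fold change -7.71, SE 0.35, adjusted p = 4.64e-06). *irld-35*, a gene of the insulin and EGF receptor-like L-domain family, had no count in either double-mutant library and 715 and 462 counts in the wild type. Against a limit of 3 counts over the double-mutant libraries it was at least 401-fold lower (adjusted p = 0.000698 in edgeR and 0.124 in DESeq2). *irld-53*, of the same family, was at 0.700 and 1.39 CPM in the double mutant and at 21.3 and 34.5 CPM in the wild type, and *srbc-15*, annotated as a pseudogene of a chemoreceptor family, at 0.446 and 0.267 CPM in the double mutant and at 9.30 and 13.5 CPM in the wild type.

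Some members of the run have near-identical copies inside it. *Y19D10A.16* and *C01B4.6* held the same rounded counts in all 8 libraries, as did *Y19D10A.4* and *C01B4.7*, and *Y19D10A.5* and *C01B4.8*, which were not called. Their reads were divided between the copies when the counts were made, so the value of each copy is uncertain and each pair carries 1 measurement. *Y19D10A.16* was at 6.75 and 8.28 CPM in the double mutant, against 27.6 and 30.2 CPM in the wild type (log2 fold change -1.94, SE 0.18), and *Y19D10A.4* had a log2 fold change of -1.59 (SE 0.23).

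The run was low in each strain with *egl-9(sa307)*. Summed over the 16 genes, the level was 583 and 642 CPM in *egl-9(lf) hif-1(lf)*, 661 and 726 CPM in *egl-9(lf)*, 259.9 and 261 CPM in *cyp-36A1(lf); egl-9(lf)* and 1842 and 1762 CPM in the wild type. *F56A4.3* was at 1.38 and 0.748 CPM in *egl-9(lf)* and *mct-1* at 122 and 130.1 CPM. The bounds of the run were drawn for the double mutant only. In *egl-9(lf)* some genes beside it were low too. *pud-4* was at 4.99 and 6.73 CPM there, against 201 and 201 CPM in the wild type. *gst-10* was at 25.4 and 35.1 CPM, against 173 and 191 CPM. Others were close to the wild type, such as *F53E10.6*, at 37.4 and 37.3 CPM, against 38.8 and 38.3 CPM. The lower sum of *cyp-36A1(lf); egl-9(lf)* came from *clec-209*, at 45.2 and 39.2 CPM there and 459.7 and 517 CPM in *egl-9(lf)*. Without *clec-209* the sum was 205 and 211 CPM in *egl-9(lf) hif-1(lf)*, 201 and 208.97 CPM in *egl-9(lf)*, 215 and 221.56 CPM in *cyp-36A1(lf); egl-9(lf)* and 768 and 777 CPM in the wild type. The *egl-9* allele and other differences from N2 that the 3 strains share cannot be told apart. From RNA counts alone, a difference in the DNA of the region and a difference in its transcription cannot be told apart either.

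**Figure D4:**
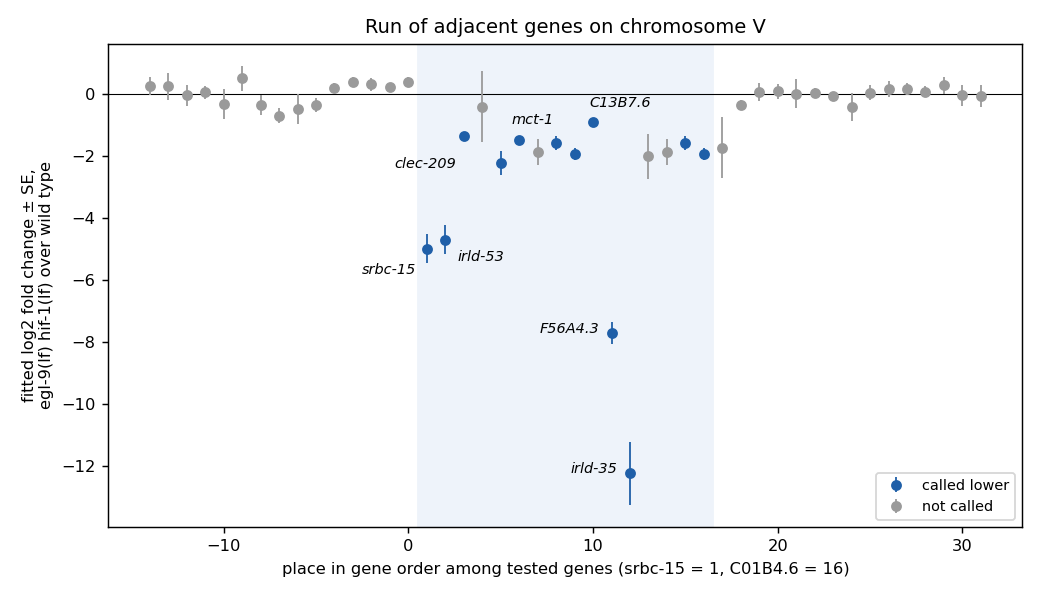
Fitted log2 fold change of *egl-9(lf) hif-1(lf)* over the wild type (y axis, bars are SE) by place in the order of tested genes on chromosome V (x axis, *srbc-15* is 1 and *C01B4.6* is 16, shaded). Blue points were called lower (12 of 16) and grey points were not called. All 16 shaded points are below 0, while none of the 15 genes on either side was called. The point of *irld-35* rests on 0 counts in the double mutant.

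Outside the run, *hif-1* and 14 other genes were lower. Some of them were lower in the double mutant than in each of the other 3 strains. *haf-6*, an ABC transporter gene with a known part in RNA interference, was at 8.08 and 9.25 CPM in *egl-9(lf) hif-1(lf)*, against 34.4 and 42.1 CPM in the wild type (log2 fold change -2.14, SE 0.17, adjusted p = 0.00023). In *egl-9(lf)* it was at 27.0 and 33.0 CPM. *adt-3*, an ADAMTS-type metalloprotease gene, was at 4.01 and 5.08 CPM in the double mutant, against 13.2 and 13.3 CPM in the wild type and 16.11 and 17.8 CPM in *egl-9(lf)* (log2 fold change -1.54, SE 0.20, adjusted p = 0.00803). *ora-1* had 1 count over both double-mutant libraries and 53 counts over both wild-type libraries, a ratio of 0.0184 with a 95% exact counting interval of 0.000458 to 0.107. *adt-3* was called without double-mutant replicate 2 only (0.0296), and *ora-1* was lost with each library left out (0.117 to 0.222).

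A further group was low in the other *egl-9* strains too. *H28G03.5*, annotated as a pseudogene on chromosome X, was at 3.56 and 4.17 CPM in the double mutant, against 27.9 and 29.7 CPM in the wild type (log2 fold change -2.89, SE 0.20, adjusted p = 7.11e-05), and at 5.11 and 4.19 CPM in *egl-9(lf)*. The fatty acid hydroxyacyl-CoA dehydrogenase gene *hacd-1* was at 12.3 and 8.98 CPM in the double mutant and 34.1 and 27.6 CPM in the wild type. *C30G12.2* was at 224 and 214 CPM in the double mutant and at 432 and 334 CPM in the wild type, and was far lower in *egl-9(lf)*, at 7.87 and 9.05 CPM. *F54D12.1* (log2 fold change -1.46), *Y57E12AL.3* (-1.43), the cuticle collagen gene *col-95* (-0.998) and *F20D6.11* (-0.94) had the same pattern. Apart from *H28G03.5*, each of these was lost with at least 3 of the 4 libraries left out in turn.

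Another group of genes was below the wild type in the double mutant and far above it in *egl-9(lf)*. *pck-1*, which encodes a phosphoenolpyruvate carboxykinase of gluconeogenesis, was at 39.8 and 40.2 CPM in *egl-9(lf) hif-1(lf)*, at 1243 and 1301 CPM in *egl-9(lf)* and at 91.0 and 93.7 CPM in the wild type. It was 2.31-fold lower in the double mutant than in the wild type (log2 fold change -1.21, SE 0.12, adjusted p = 0.000888) and passed in all 16 alternative settings. *nit-1*, a nitrilase gene, was at 2.55 and 1.66 CPM in the double mutant, 109 and 104 CPM in *egl-9(lf)* and 5.61 and 4.87 CPM in the wild type (log2 fold change -1.35, SE 0.21, adjusted p = 0.0226). *clec-222* was at 0.955 and 1.496 CPM in the double mutant, 28.9 and 29.7 CPM in *egl-9(lf)* and 4.51 and 3.84 CPM in the wild type (log2 fold change -1.76, SE 0.29, adjusted p = 0.039). *nit-1* was called without double-mutant replicate 1 (0.0305) and lost without each of the other 3 libraries (0.0729 to 0.375), and *clec-222* was lost with each library left out (0.0946 to 0.443). The last of the lower genes, *hrg-7*, had the smallest difference and a level of 98.7 and 115 CPM in the double mutant, against 157 and 181 CPM in the wild type (log2 fold change -0.66, SE 0.11, adjusted p = 0.0492). It was lost with each library left out (0.0765 to 0.642) and called in 5 of the 16 alternatives. It is known as a signal of haem need between tissues.

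**Figure D5:**
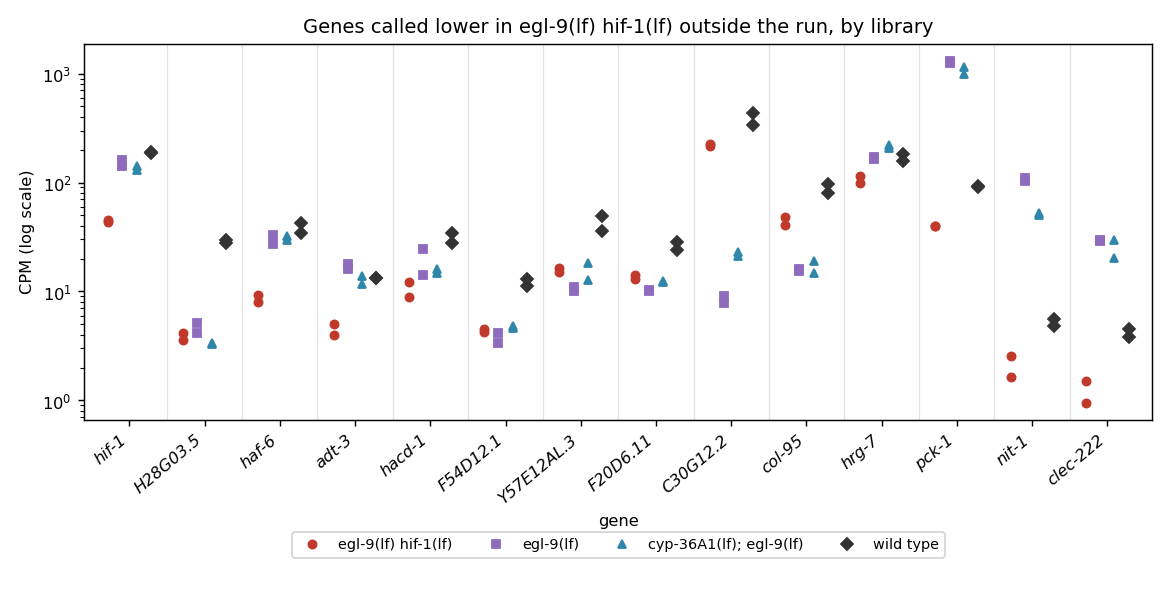
CPM (y axis, log scale) of 14 genes called lower in *egl-9(lf) hif-1(lf)* than in the wild type that lie outside the chromosome V run (x axis), one point per library, with the double mutant as red circles, *egl-9(lf)* as purple squares, *cyp-36A1(lf); egl-9(lf)* as blue triangles and the wild type as black diamonds. *ora-1* is left out because it had a library with 0 counts. *pck-1*, *nit-1* and *clec-222* were lowest in the double mutant and highest in the other 2 strains with *egl-9(sa307)*.

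Other genes of central metabolism were not called. *pck-1* was the only gene called of 23 glycolysis and gluconeogenesis genes, although 18 of the 23 had a negative log2 fold change, with a median of -0.13. Of all 14311 genes, 6772 were negative. At an unadjusted p under 0.05, 6 were lower and 1, *gpd-4*, was higher, against 1.92% and 1.7% of all genes. Both double-mutant libraries were below both wild-type libraries for 14 of the 23 and above them for 1. Those shares were 14.8% and 13.8% over all genes. The second carboxykinase gene, *pck-2*, was at 676 and 698 CPM in the double mutant and at 861 and 782 CPM in the wild type (log2 fold change -0.26, SE 0.11, adjusted p = 1.00). None of 40 nuclear genes of the respiratory chain passed edgeR's test, with 1 at an unadjusted p under 0.05 and none by DESeq2, and their log2 fold changes lay between -0.23 and 0.24.

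Genes of stage and germline gave 1 call. Summed over the sperm list, the level was 5239 and 7103 CPM in the double mutant and 5643 and 5739 CPM in the wild type. None of its 92 tested genes passed edgeR's test, with 1 at an unadjusted p under 0.05, against 3.62% of all genes, and none by DESeq2. Of the 92, 80 had a positive log2 fold change, beside 7527 of the 14311 genes, with a median of 0.16. None of 26 oocyte and eggshell genes and none of 6 yolk protein genes passed either tool, and none of them had an unadjusted p under 0.05. Of the 26 oocyte and eggshell genes, 23 had a positive log2 fold change, with a median of 0.11. Their summed level was 16123 and 13335 CPM in the double mutant and 13459 and 14533 CPM in the wild type. All 6 yolk genes had a negative log2 fold change, from -0.19 for *vit-6* to -0.13 for *vit-1*, with both double-mutant libraries below both wild-type libraries, as for 14.8% of all genes. By edgeR without a block, 1 of 112 cuticle collagen genes was lower (*col-95*) and none higher. At an unadjusted p under 0.05, 8 were lower and none higher, against 1.92% and 1.7% of all genes. Of the 112, 78 had a negative log2 fold change, beside 6772 of the 14311 genes, and the median was -0.12. *col-135* was lower as well by DESeq2 (adjusted p = 0.00175) and with the block (0.00327), against 0.160 without it. None of 13 moulting genes passed either tool, and none had an unadjusted p under 0.05.

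Stress and housekeeping families gave no call, and chemoreceptors gave 1. None of 25 heat shock protein genes, 13 antioxidant enzyme genes and 78 cytosolic ribosomal protein genes passed edgeR's test or DESeq2's, with 2, 0 and 0 at an unadjusted p under 0.05. None of 237 tested F-box, MATH and BTB family genes passed either tool, with 11 at an unadjusted p under 0.05, beside 3.62% of all genes. Among 184 nuclear hormone receptor genes none passed either tool and 5 had an unadjusted p under 0.05. Of these, 128 had a negative log2 fold change, beside 6772 of the 14311 genes, with a median of -0.13, and their summed level was 1405 and 1433 CPM in the double mutant and 1516 and 1502 CPM in the wild type. Of 44 chemoreceptor genes tested the only call was *srbc-15*, a member of the chromosome V run.

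Stability differed between the genes. With each of the 4 libraries left out in turn, 13 of the 45 genes passed every time. Of these, 2 were higher (*ftn-1* and *fat-7*) and 11 were lower: *hif-1*, *haf-6*, *H28G03.5*, *pck-1* and 7 genes of the chromosome V run, 6 with identical copies taken once (*F56A4.3*, *irld-35*, *srbc-15*, *mct-1*, *clec-209*, *Y19D10A.16* and *C01B4.6*).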

How the data were processed

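The authors aligned single-end reads of polyadenylated RNA to the ce10 genome with RSEM 1.2.15 and Bowtie 1.0.1, and deposited expected counts per gene for 8 libraries, which divide reads among similar genes. The deposited table also holds the authors' FPKM values, used here only in alternatives. Expected counts were rounded for testing, as 36.1% of the values above 0 were fractional (tolerance 0.001).

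All 4 strains were fitted in one model with edgeR 4.0.16 in R 4.3.3, with filterByExpr, TMM scaling, glmQLFit and glmQLFTest, and Benjamini-Hochberg adjustment over 14311 genes. Without a filter the default spread estimate had infinite prior degrees of freedom, against 6.63 with it. CPM are TMM-scaled, and SE come from each fold change divided by the root of its F. On counts simulated for *egl-9(lf) hif-1(lf)* against the wild type, 48 of 100 genes changed 2-fold and 89 of 100 changed 4-fold were recovered among 14311 genes, with 6 false calls. The changed genes were drawn only from those above a floor of expected counts in the smallest library. Their spreads were drawn around the fitted trend. Recovery of changed genes with fewer counts was not simulated. Replicates of a strain differed by more than sampling noise. Per the study's methods they came from separate populations of animals. Deviations of same-numbered libraries correlated in all 6 pairs of strains (0.111 to 0.273 over 14311 genes), which met the rule for pairing by replicate number. The study's methods name no block, so the reported test left it out and a blocked fit was tried beside it. The other alternatives were DESeq2 1.42.0, median-ratio scaling, library size alone, no filter with 2 spread estimates, an FPKM filter, robust estimation, only the 2 strains, limma 3.58.1 on log2(FPKM + 0.5), with pseudocounts of 0.1 and 1, and each library left out, where the lone library was assumed to vary like the other strains.

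The comparison and the gene lists were chosen with earlier results of these data known. Named genes were the targeted genes, the 10 largest rises and falls, the 5 largest of each at a mean of 50 CPM or more, the called and extreme members of lists, and the HIF-1-responsive list. The other called genes, *pgp-6*, *W05H12.1*, *ugt-26*, *cyp-35A2*, *col-135*, *clec-218*, *clec-223* and the 2 runs of neighbouring genes were named after their values were seen. So were *C01A2.2*, *mihp-1*, *pud-4*, *gst-10*, *F53E10.6* and *cbs-1*. Names and gene order came from RefSeq (WBcel235), which matched 14076 of the 14311 genes (98.4%), and no coordinates are given because the build differs. Intervals and limits of 3 counts cover counting error only.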

Additional observations from a re-analysis of the deposited data

How the results depend on the processing

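All 45 called genes kept their direction in the 16 alternatives, and 11 were called in every one. The genes that passed numbered 35 higher and 49 lower with the replicate block (23 and 35 at 2-fold or more), where all 45 were kept. Without a filter and with the default spread estimate they numbered 77 higher and 74 lower (42 and 50 at 2-fold or more). On limma with log2(FPKM + 0.5), 9 were higher (7 at 2-fold or more), with + 0.1, 7 were higher (5 at 2-fold or more) and 17 lower, and with + 1, 9 were higher (7 at 2-fold or more). DESeq2 called 64 genes, 42 of them shared. With 1 library left out, 2 to 12 genes were higher and 13 to 16 lower (2 to 8 and 12 to 16 at 2-fold or more), with 2 higher without wild-type replicate 1. The cause of these differences was not tested. Turns of direction were checked for the called genes, the targeted genes, the HIF-1-responsive list and some other named genes. None of those that turned was called in any alternative. Genes outside that check turned as well, such as *cbs-1*, from -0.50 to 0.37 with 1 library left out. With 1 library left out the log2 fold change ranged from -0.56 to 0.053 for *cyp-36A1*, from -0.37 to 0.055 for *cysl-2*, from -0.16 to 0.092 for *cdo-1*, from -0.64 to 0.39 for *sysm-1*, from -0.083 to 0.062 for *gcs-1* and from -0.47 to 0.62 for *fat-6*. Without a filter it was 0.0016 and 0.0010 for *gcs-1* with the 2 spread estimates and 0.00263 for *sysm-1* with the revised one. With 2 libraries a strain, a difference that was not called is not shown to be absent. Of simulated 2-fold changes, 48 of 100 were recovered, all placed in genes above a floor of counts. That share does not cover genes with fewer counts.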
